A study of Mus musculus with 12 samples.

Results

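The p53 pathway genes described here are a list of 53 genes named as components, regulators or direct transcriptional targets of p53, matched to the arrays by gene symbol. No measured value enters that rule, although the list was drawn up with earlier results of these data known. Of these, 49 had a probe set with that symbol on the array, out of 16475 probe sets tested. Atr, Cop1, Siah1b and Eda2r were not analysed here. RNA was taken from NIH 3T3 cells, an immortal line of mouse embryo fibroblasts, and hybridised to 12 Affymetrix Mm430_2.0 arrays, 3 for each of 4 groups. The inducible cells (3T3-ind-IER2 #11) carry mouse Ier2, an immediate early gene of growth factor signalling, under the RheoSwitch system, in which a ligand-dependent receptor and activator pair drives the construct. The comparison cells were parental NIH 3T3. Both lines received for 24 h either DMSO, the solvent, or 200 nM RSL, the RheoSwitch ligand, and the listed medium of all groups held G418 and hygromycin. The inducible line is 1 clone, so what the construct does and what sets this clone apart from the parental population cannot be told apart in a comparison of the lines. The labels call the arrays of a group biological replicates but do not mention separate cultures, and the p-values below measure the spread between arrays.

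p53 is a transcription factor that is kept low in unstressed cells by the ubiquitin ligase MDM2 and its partner MDM4. After DNA damage the kinases ATM and ATR, with CHK1 and CHK2 below them, modify p53 and it accumulates. It then binds response elements made of a pair of half-sites near its targets, among them Cdkn1a, whose product p21 stops cyclin-dependent kinases, Mdm2, which closes a feedback loop, and sets of apoptosis, DNA repair and antioxidant genes. Much of the control of p53 lies in its protein, which RNA arrays do not measure. NIH 3T3 cells are known to lack Cdkn2a, which encodes the MDM2 inhibitor ARF.

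The Ier2 probe set, the check of the construct, ran against the labels. The inducible arrays labelled DMSO read 9.07, 9.04 and 8.96 on the log2 scale and the inducible arrays labelled RSL 8.50, 8.48 and 8.66, all below them. The difference was -0.47 (standard error 0.05, adjusted p = 4.64e-05 from limma). In parental cells the values were 8.60, 8.61 and 8.53 with DMSO and 8.82, 8.74 and 8.67 with RSL. Whether this probe set reads the construct's transcript is not known from the sources used here, so the groups are called the arrays labelled DMSO and RSL. Whether the labels of the inducible arrays are exchanged was not tested. If they were, the sign of every RSL effect in inducible cells would turn, and the inducible arrays in the DMSO and RSL comparisons of the lines would change places. The difference of the RSL effects between the lines would change in size as well, since its parental part would stay. Fibroblast markers were high, with 8 of 10 above the third quartile of every array, and the markers of macrophages, epithelium and endothelium averaged 6.07 to 6.45 on every array, near the first quartile of 6.23 to 6.30. Of the p53 genes, 36 lay above the median on every array (7.03 to 7.06), 14 of them above the third quartile, and Pmaip1 and Ddit4l lay below the first quartile on all 12 arrays, where a change would be hard to see. Fold differences below are differences of group means on the log2 scale, and in such bulk samples fewer expressing cells and less RNA per cell cannot be told apart.

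Few p53 genes differed between the inducible arrays labelled RSL and those labelled DMSO, and rose and fell below follow these labels. Of the 49 genes, 2 rose (Sesn1 and Ephx1), 1 fell (Plk3) and 46 did not pass an adjusted p under 0.05 in limma. The share called was thus 6.12%, against 2.54% of all probe sets. That background depends on expression level, here and where it is used below. Without the 40% of probe sets of lowest mean, 6.82% of the 44 p53 genes kept were called, against 3.96% of probe sets. The median difference was 0.01 on the log2 scale, against 0.00 for all probe sets, with 28 genes above 0 and 21 below. The 95% interval of the RSL effect lay within 0.25 log2 units of 0 for 46 of the 49 genes, among them Cdkn1a and Mdm2. At an unadjusted p under 0.05 there were 10 genes higher and 5 lower, or 30.6% against 12.3% of all probe sets, and the 3 arrays per group did not overlap for 17 genes, or 34.7% against 18.1%. The counts are small and rest on single arrays. Without each array in turn, between 0 and 3 genes were called, against 1.24% to 2.77% of all probe sets.

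**Figure D1:**
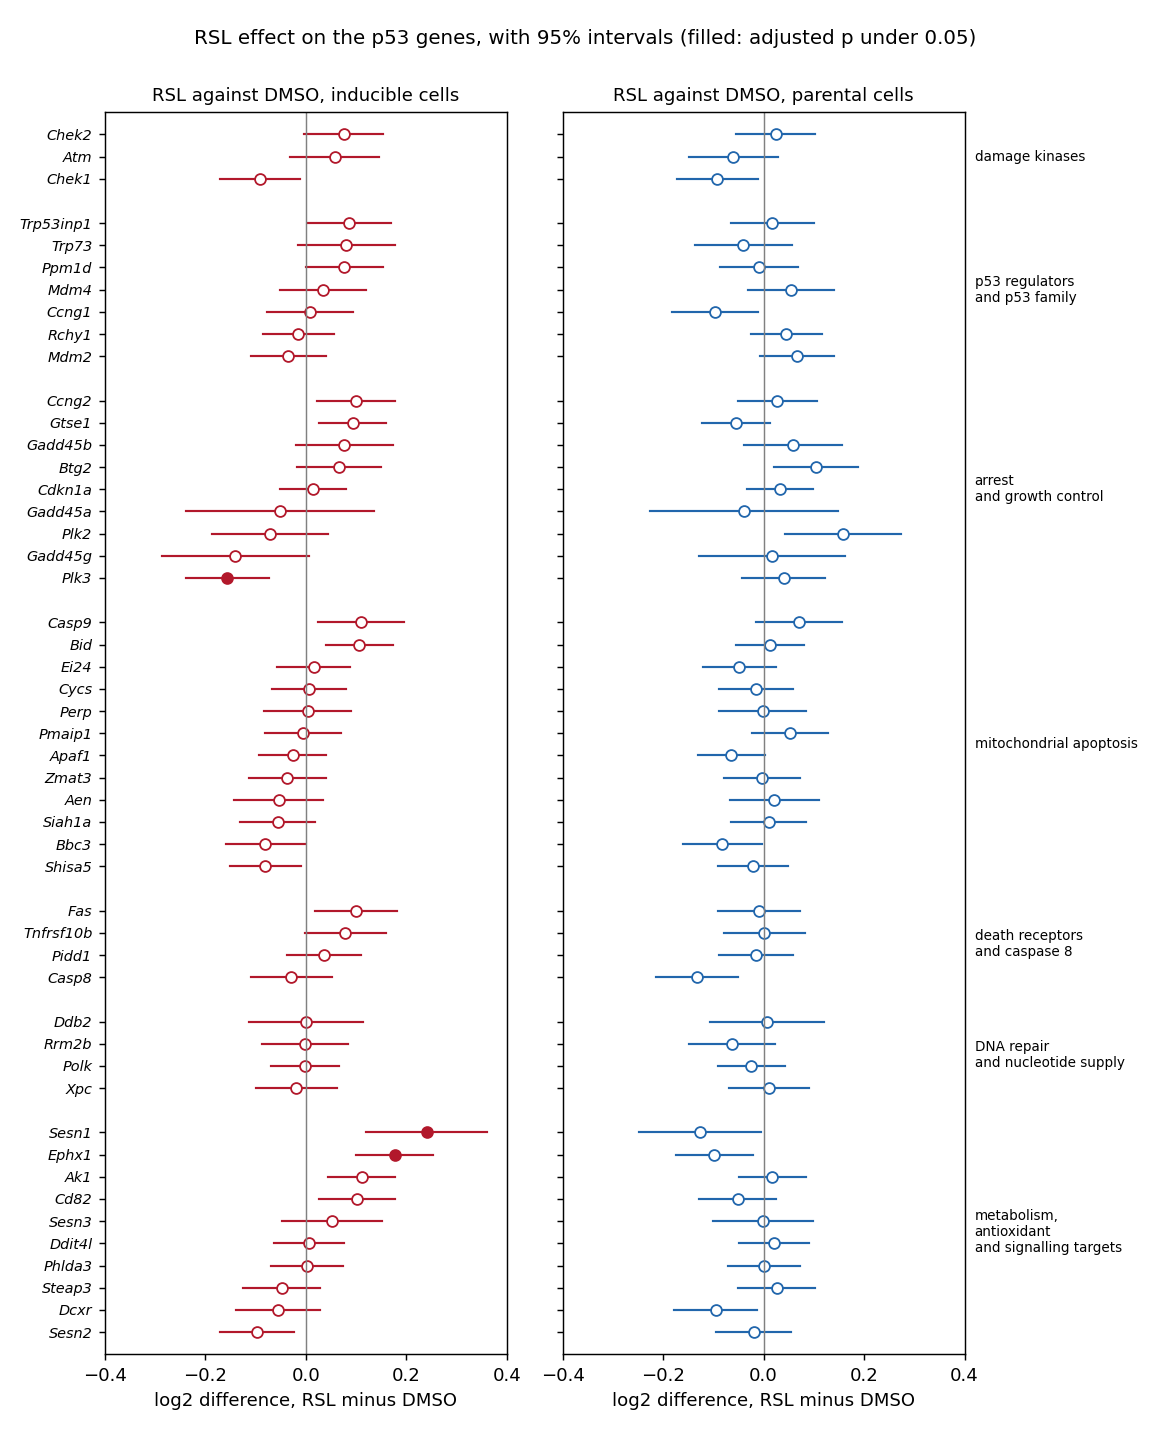
Each point is the log2 difference, arrays labelled RSL minus arrays labelled DMSO, of 1 p53 gene in inducible cells (left) or parental cells (right), with 3 arrays per group. The bars are 95% intervals from limma, filled points passed an adjusted p under 0.05, and genes are grouped by role. Only Sesn1, Ephx1 and Plk3 are filled, all in inducible cells.

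Since several of these genes are textbook examples of direct p53 binding, the sequence at their start sites is shown with the p53 response element search. The windows run from 250 bases before to 50 bases after the annotated start and come from RefSeq (GRCm38.p6). The search took both strands and allowed a pair of half-sites of 10 bases each with a spacer of 0 to 13 bases and at most 2 mismatches over both, keeping the C and the G of each core. Of the 53 genes, 45 had such a window, and 7 of these (15.6%) held a match, against 4.71% of the 27025 genes with a window. The p53 genes had 69 windows between them, of which 10.1% matched, against 4.09% of all windows. Capitals mark the half-sites of the pair with the fewest mismatches in a window, and among equals the shortest spacer. Other pairs that also met the rule are not marked, and a window without capitals had no match. The first set is shown because it holds the classical targets Cdkn1a and Ccng1, which did not pass the test for RSL, beside the 3 genes that did.
Cdkn1a, chr17:29090729-29091028, plus strand: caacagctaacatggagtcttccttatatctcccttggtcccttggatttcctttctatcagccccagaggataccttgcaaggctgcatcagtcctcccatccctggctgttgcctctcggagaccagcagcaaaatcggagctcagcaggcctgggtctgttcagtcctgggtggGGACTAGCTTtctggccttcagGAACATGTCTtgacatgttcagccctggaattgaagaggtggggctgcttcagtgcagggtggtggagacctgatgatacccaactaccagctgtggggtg
Ccng1, chr11:40755237-40755536, minus strand: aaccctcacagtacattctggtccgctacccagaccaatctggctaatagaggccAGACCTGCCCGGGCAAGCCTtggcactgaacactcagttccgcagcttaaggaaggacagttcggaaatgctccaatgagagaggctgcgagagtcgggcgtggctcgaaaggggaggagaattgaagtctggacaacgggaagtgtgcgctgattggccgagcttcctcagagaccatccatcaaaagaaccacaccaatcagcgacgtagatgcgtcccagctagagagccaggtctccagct
Sesn1, chr10:41887189-41887488, plus strand: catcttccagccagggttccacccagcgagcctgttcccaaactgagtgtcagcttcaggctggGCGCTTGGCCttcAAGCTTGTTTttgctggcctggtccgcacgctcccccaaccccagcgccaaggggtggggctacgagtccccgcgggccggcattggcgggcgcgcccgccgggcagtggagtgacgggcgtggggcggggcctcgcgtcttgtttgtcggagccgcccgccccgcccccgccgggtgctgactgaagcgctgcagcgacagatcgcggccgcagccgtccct
Ephx1, chr1:181017520-181017819, minus strand: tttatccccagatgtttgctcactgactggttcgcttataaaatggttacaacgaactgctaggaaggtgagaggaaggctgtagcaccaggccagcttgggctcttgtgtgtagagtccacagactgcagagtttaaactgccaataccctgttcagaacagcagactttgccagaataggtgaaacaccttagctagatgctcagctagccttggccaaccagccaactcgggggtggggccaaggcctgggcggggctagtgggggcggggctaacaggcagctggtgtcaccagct
Plk3, chr4:117133914-117134213, minus strand: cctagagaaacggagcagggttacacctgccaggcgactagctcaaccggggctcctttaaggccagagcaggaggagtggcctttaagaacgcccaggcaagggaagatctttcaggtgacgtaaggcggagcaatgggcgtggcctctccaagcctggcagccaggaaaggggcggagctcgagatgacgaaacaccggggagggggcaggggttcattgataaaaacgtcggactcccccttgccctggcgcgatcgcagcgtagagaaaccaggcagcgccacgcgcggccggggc

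The Cdkn1a window held a pair of half-sites with 0 mismatches and a spacer of 12 bases, beginning 73 bases before the annotated start used for that window. The bases tgacatgttc right after its later half-site make a directly joined pair with it, also within the allowed mismatches but not marked. The window of the other annotated Cdkn1a start lies downstream, at chr17:29093519-29093818. Ccng1 held 1 mismatch, with its half-sites directly joined, 195 bases before the start. The Sesn1 match had 2 mismatches and a spacer of 3 bases and began 186 bases before the start. Both Cdkn1a and Sesn1 had another annotated start whose window held no match, and neither Ephx1 nor Plk3 had a match in this window. A match describes letters and not binding, and its absence says nothing about elements elsewhere in the gene. The other matches were the following, printed because they are the remaining p53 genes with a probe set and a match.
Gadd45a, within chr6:67037358-67037657, minus strand: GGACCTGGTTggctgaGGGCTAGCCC
Gtse1, within chr15:85859696-85859995, plus strand: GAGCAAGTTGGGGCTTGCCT
Trp73, within chr4:154097124-154097423, minus strand: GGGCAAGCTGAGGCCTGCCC

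Of the 6 measured genes with a match, Sesn1 was called after RSL, and Cdkn1a, Ccng1, Gadd45a, Gtse1 and Trp73 were not.

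Sesn1, a p53 target encoding sestrin 1, which restrains mTORC1 signalling, rose in the inducible cells. The arrays labelled DMSO read 7.54, 7.49 and 7.49 and those labelled RSL 7.72, 7.89 and 7.65, so the groups did not overlap, although RSL replicate 2 lay well above the other two. The difference was 0.24 (standard error 0.06, 1.18-fold, adjusted p = 0.0325 from limma). In parental cells Sesn1 read 7.91, 8.07 and 8.09 with DMSO and 7.87, 7.85 and 7.97 with RSL, with overlapping groups and a difference of -0.13 (standard error 0.06, adjusted p = 0.499 in limma). The inducible arrays of both treatments stayed below every parental DMSO array. The call ended when any of the 3 inducible DMSO arrays, or RSL replicate 1 or 2, was left out: the adjusted p was then 0.0730 to 0.139, with a difference of 0.17 to 0.26.

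Its relatives were not called after RSL. Sesn2, the stress-induced sestrin that is also a target of ATF4, read 8.72, 8.77 and 8.76 with DMSO and 8.60, 8.66 and 8.68 with RSL in inducible cells, non-overlapping in the opposite direction, and the difference of -0.10 did not pass (standard error 0.03, adjusted p = 0.206 in limma). Sesn3, a FOXO target, read 7.22, 7.18 and 7.32 and then 7.32, 7.28 and 7.27, which overlap. In parental cells Sesn2 was at 8.60, 8.57 and 8.51 with DMSO and 8.51, 8.55 and 8.56 with RSL. Sesn3 there was at 6.78, 6.95 and 6.83 and at 6.87, 6.78 and 6.91. Under DMSO each sestrin differed more between the lines than between treatments of the inducible line, Sesn3 and Sesn2 being higher and Sesn1 lower in the inducible line.

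**Figure D2:**
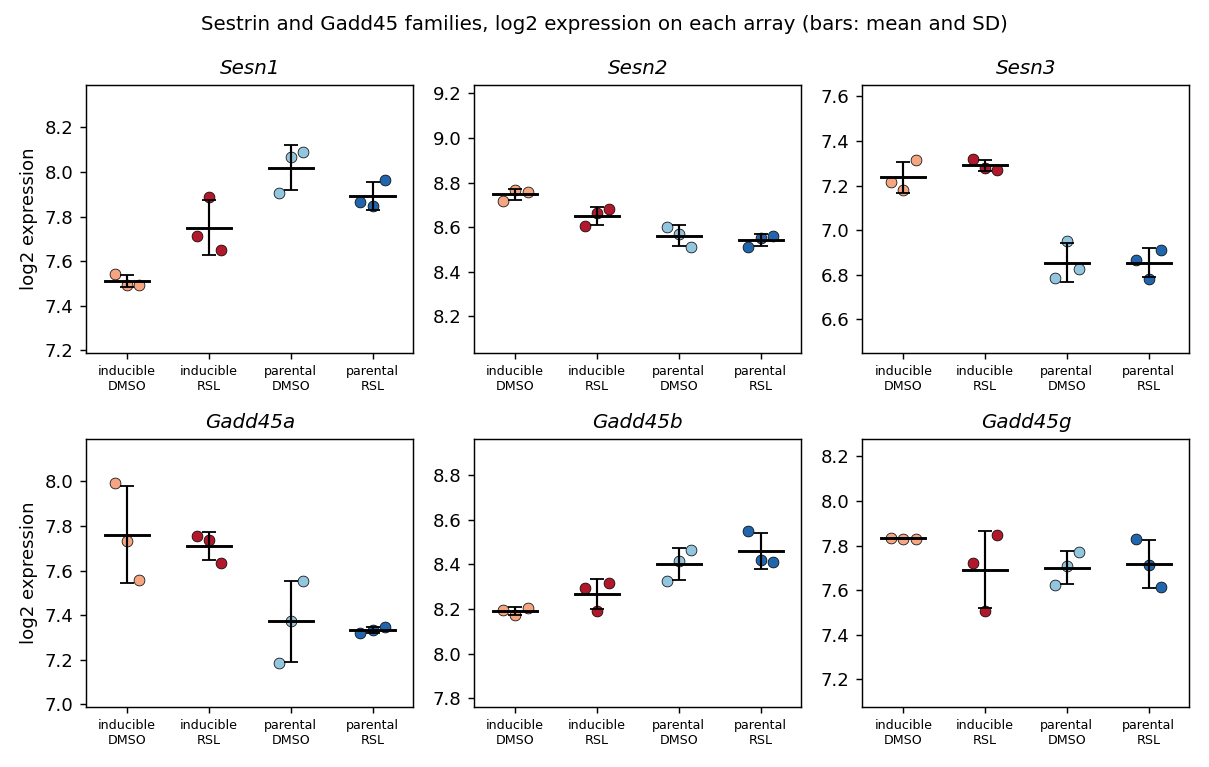
Log2 expression of the 3 sestrin genes (top) and the 3 Gadd45 genes (bottom) on each of the 12 arrays. Points are arrays, thick lines are group means and bars are SDs of 3 arrays. Each axis spans the same number of log2 units around its own gene. The group means of Sesn1 are lower, and those of Sesn3 and Gadd45a higher, in the inducible line, while Gadd45a varies most between arrays of 1 group.

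Ephx1, microsomal epoxide hydrolase, which detoxifies reactive epoxides, also rose. It read 10.01, 10.01 and 10.13 in inducible cells with DMSO and 10.25, 10.24 and 10.20 with RSL, so that every RSL array lay above every DMSO array. The difference was 0.18 (standard error 0.04, 1.13-fold, adjusted p = 0.0130 from limma). Parental cells read 9.92, 9.96 and 9.89 with DMSO and 9.83, 9.83 and 9.81 with RSL, without overlap but at an adjusted p of 0.419 in limma (difference -0.10, standard error 0.04). The highest Ephx1 values of the experiment were therefore those of the inducible arrays labelled RSL and the lowest those of the parental arrays labelled RSL. The rise lost its call without inducible DMSO replicate 1 or 2 or RSL replicate 1 or 2, when the adjusted p was 0.0506 to 0.0850 and the difference 0.16 to 0.17.

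Plk3, a polo-like kinase linked to stress signalling and induced early by serum, fell. Its values were 7.91, 7.82 and 7.92 with DMSO and 7.73, 7.73 and 7.72 with RSL in inducible cells. The groups did not overlap and the RSL arrays were nearly identical (difference -0.16, standard error 0.04, adjusted p = 0.0410 from limma). Parental cells read 7.65, 7.53 and 7.62 with DMSO and 7.69, 7.61 and 7.62 with RSL, all below the inducible arrays. This call was the weakest of the 3: 8 of the 12 fits without 1 array did not pass, with an adjusted p of up to 0.177 without inducible DMSO replicate 1 and differences of -0.19 to -0.14 over all 12. Among those 8 were each inducible RSL array (0.110 to 0.116), inducible DMSO replicate 3 (0.154), parental DMSO replicate 3 (0.0579), and parental RSL replicates 2 (0.05004) and 3 (0.0526), and a fit on the 6 inducible arrays alone gave 0.0502. Plk2, its serum- and p53-inducible relative, had an interval of -0.19 to 0.05 for the same contrast.

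**Figure D3:**
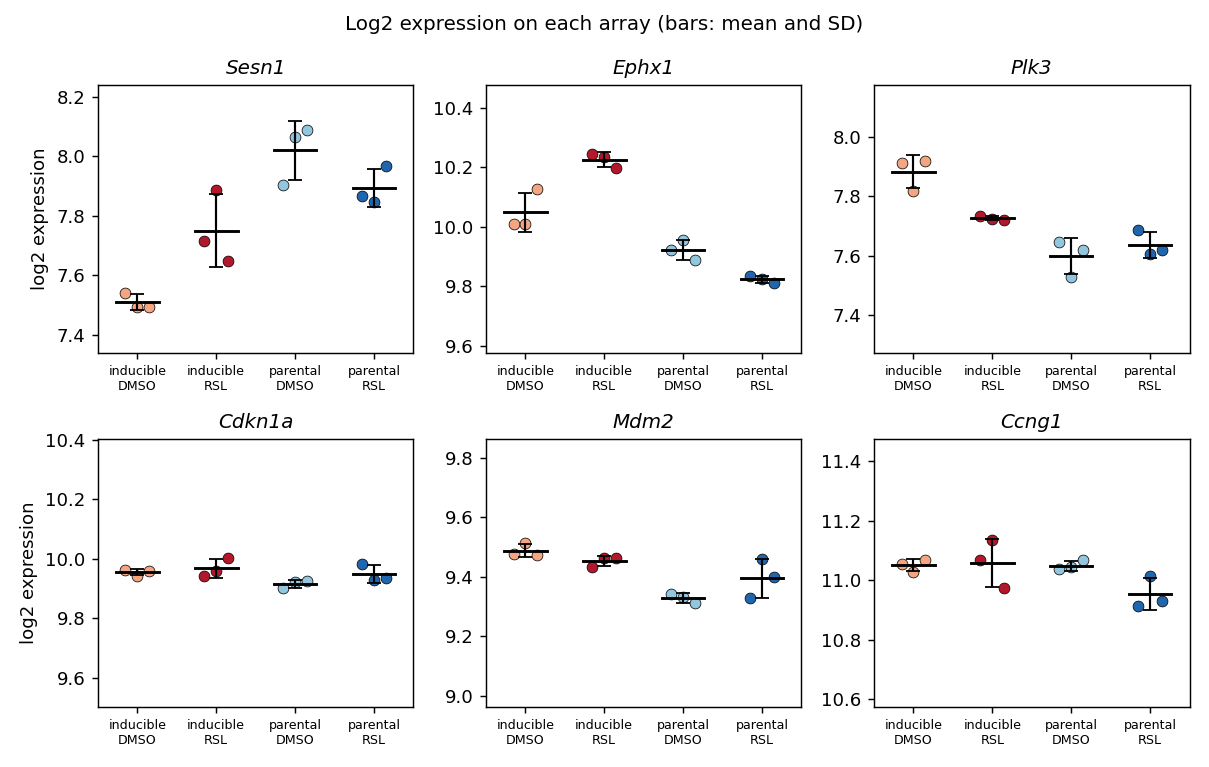
Log2 expression on each of the 12 arrays for the 3 p53 genes called after RSL in inducible cells (top) and for Cdkn1a, Mdm2 and Ccng1 (bottom). Points are arrays, thick lines are means and bars SDs of 3 arrays, and all axes span the same number of log2 units. Sesn1 and Ephx1 go up and Plk3 goes down from the first to the second group, and Cdkn1a lies between 9.90 and 10.00 on all 12 arrays.

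The classical targets and inhibitors gave values close to 0. Cdkn1a read 9.96, 9.94 and 9.96 in inducible cells with DMSO, 9.94, 9.96 and 10.00 with RSL, 9.90, 9.92 and 9.93 in parental cells with DMSO and 9.98, 9.93 and 9.94 with RSL. The RSL difference in inducible cells was 0.01, with a 95% interval of -0.05 to 0.08, so a change of the size measured for Sesn1 lay outside it. Mdm2, the ligase that marks p53 for destruction, read 9.48, 9.52 and 9.47 with DMSO and 9.43, 9.46 and 9.46 with RSL, a difference of -0.04 (95% interval -0.11 to 0.04), and in parental cells 9.34, 9.33 and 9.31 and then 9.33, 9.46 and 9.40. Ccng1, cyclin G1, a p53 target that recruits a phosphatase to MDM2, overlapped between treatments in inducible cells, at 11.05, 11.03 and 11.07 with DMSO and 11.07, 11.13 and 10.97 with RSL. In parental cells it read 11.04, 11.04 and 11.07 with DMSO and 10.91, 11.01 and 10.93 with RSL, which do not overlap, yet the difference of -0.10 did not pass (adjusted p = 0.46 in limma). None of the 7 measured regulators and relatives of p53 was called in limma after RSL in either line, with 1 gene in each at an unadjusted p under 0.05 (14.3%, against 12.3% of all probe sets in inducible and 9.71% in parental cells). In inducible cells Trp53inp1, a stress-induced partner of p53, was at 0.09, Trp73, the p53 relative p73, at 0.08, Ppm1d, the WIP1 phosphatase that switches the damage response off, at 0.08, Mdm4 at 0.03 and Rchy1, another p53 ubiquitin ligase, at -0.01.

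Of the 9 arrest and growth control genes, Plk3 was called in inducible cells (11.1%, against 2.54% of all probe sets), and 3 were at an unadjusted p under 0.05 (33.3%, against 12.3%). The Gadd45 genes encode small stress sensors that bind PCNA, p21 and MEKK4. Gadd45a, the p53-dependent member, had the widest spread of the list, at 7.99, 7.73 and 7.56 with DMSO and 7.76, 7.74 and 7.64 with RSL in inducible cells and 7.19, 7.38 and 7.55 and 7.32, 7.33 and 7.35 in parental cells, and its interval for the RSL effect in inducible cells ran from -0.24 to 0.14. Gadd45b, a target of NF-kB and TGF-beta signalling, read 8.20, 8.17 and 8.20 and then 8.29, 8.19 and 8.32 in inducible cells, and 8.33, 8.41 and 8.47 and then 8.55, 8.42 and 8.41 in parental cells. Gadd45g read 7.84, 7.83 and 7.83 with DMSO and 7.72, 7.51 and 7.85 with RSL in inducible cells, and 7.62, 7.71 and 7.77 and then 7.83, 7.71 and 7.61 in parental cells. No Gadd45 gene separated the treatments within a line. Gtse1, which moves p53 out of the nucleus in G2, was at 0.09 after RSL in inducible cells (adjusted p = 0.184), Ccng2, cyclin G2, at 0.10 (adjusted p = 0.224) and Btg2, an antiproliferative gene, at 0.07 (adjusted p = 0.592), all from limma.

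None of the 12 mitochondrial apoptosis genes was called in limma after RSL in inducible cells, against 2.54% of all probe sets, and 4 were at an unadjusted p under 0.05 (33.3%, against 12.3%). In inducible cells Bid, which carries the caspase 8 signal to mitochondria, was at 0.11 (adjusted p = 0.104 from limma) with every RSL array above every DMSO array, and Casp9, the initiator caspase of the apoptosome, was at 0.11 (adjusted p = 0.227). The BH3-only killers stood at -0.08 for Bbc3, which encodes PUMA, and -0.01 for Pmaip1, which encodes NOXA. Shisa5, an endoplasmic reticulum protein of p53-dependent death, was at -0.08, Siah1a, a ubiquitin ligase, at -0.06, Aen, an apoptosis nuclease, at -0.05, Zmat3, an RNA-binding target of p53, at -0.04 and Apaf1, the apoptosome scaffold, at -0.03. Cycs (cytochrome c), Perp and Ei24 were between 0.00 and 0.02. Among the death receptors, Fas was at 0.10 (adjusted p = 0.267 from limma) and Tnfrsf10b, the mouse TRAIL receptor, at 0.08. Pidd1 and Casp8, which were grouped with them, were at 0.04 and -0.03. Both groups of apoptosis genes therefore held values on both sides of 0.

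The DNA repair and nucleotide genes had the smallest differences. Ddb2 and Xpc, which find ultraviolet lesions, Polk, a lesion-bypass polymerase, and Rrm2b, the p53-induced ribonucleotide reductase subunit, lay between -0.02 and 0.00 after RSL in inducible cells, and the widest interval of the 4 was that of Ddb2, -0.11 to 0.11. Of the damage kinases, Chek1 was at -0.09 (adjusted p = 0.314 from limma) and Atm and Chek2 at 0.06 and 0.07. Of the 10 metabolic, antioxidant and signalling targets, Sesn1 and Ephx1 were called in inducible cells (20%, against 2.54% of all probe sets). At an unadjusted p under 0.05 there were 5 (50%, against 12.3%). Among the others in this group, Ak1, adenylate kinase, stood at 0.11 with non-overlapping groups (adjusted p = 0.0828 from limma) and Cd82, a tetraspanin that limits cell migration, at 0.10 (adjusted p = 0.201). Dcxr, Steap3, Phlda3 and Ddit4l, which encode a xylulose reductase, an iron reductase, an AKT inhibitor and an mTOR inhibitor, lay between -0.06 and 0.01.

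In parental cells, which lack the construct, RSL called none of the 49 genes in limma, and 0.0303% of all probe sets. At an unadjusted p under 0.05 in limma there were 9 genes, or 18.4% against 9.71% of all probe sets, 2 higher and 7 lower. The groups did not overlap for 10 genes, or 20.4% against 13.3% of all probe sets. The one-way analysis on the same arrays gave 6 genes at a nominal p under 0.05, a level that 7.44% of all probe sets reached. Of the 9 genes from limma, the 2 higher ones were Plk2 at 0.16 (adjusted p = 0.398) and Btg2 at 0.10 (adjusted p = 0.437). Casp8 and Sesn1 were at -0.13, Ephx1, Ccng1 and Dcxr at -0.10, Chek1 at -0.09 and Bbc3 at -0.08. Chek1 and Bbc3 had nearly the same values in inducible cells, -0.09 and -0.08.

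Whether RSL acted differently in the 2 lines was asked with the difference of the effects. It was larger in inducible cells for Sesn1, by 0.37 (standard error 0.08, adjusted p = 0.04997 from limma), and for Ephx1, by 0.28 (standard error 0.05, adjusted p = 0.0169), and 4.08% of the p53 genes were called against 0.662% of all probe sets. In both genes part of the difference came from the parental arrays, where the mean was lower with RSL. With the inducible labels exchanged, both effects would be below 0 in either gene and their difference would be smaller. Without the 40% of probe sets of lowest mean, 4.55% of the 44 p53 genes kept were called, against 1.05% of probe sets. At an unadjusted p under 0.05 there were 7 genes, or 14.3% against 9.07% of all probe sets. Cd82 and Gtse1 at 0.15 and Ak1 at 0.09 were higher beside the called pair, and Plk3 at -0.20 (adjusted p = 0.152) and Plk2 at -0.23 (adjusted p = 0.289) were lower. For Cdkn1a the difference of the effects was -0.02, with a 95% interval of -0.11 to 0.07. The call of Sesn1 is at the threshold and ended in 9 of 12 fits without 1 array (all but those without inducible RSL replicate 3, parental DMSO replicate 1 or parental RSL replicate 3), with an adjusted p of up to 0.144, and it also ended when each array's median was subtracted (adjusted p = 0.0602). That of Ephx1 ended without inducible DMSO replicate 1 or 2, inducible RSL replicate 1 or 2, or parental DMSO replicate 2, with an adjusted p of 0.0542 to 0.0734.

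The cell lines themselves differed far more. With DMSO, 15 of the 49 p53 genes were higher and 11 lower in the inducible line than in parental cells, so that 53.1% were called, against 29.7% of all probe sets. The groups did not overlap for 36 genes, or 73.5% against 40.2%. The background itself depends on expression level: with the 40% of probe sets of lowest mean left out, 59.1% of the 44 p53 genes kept were called against 44.5% of probe sets. With RSL, 19 were higher and 10 lower (59.2% against 34.2% of all probe sets, and 63.6% against 49% among those kept), and 32 genes did not overlap (65.3% against 44.5%). The median difference was 0.04 and 0.05 on the log2 scale.

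The largest of these differences under DMSO is that of Sesn1, at -0.51 (standard error 0.06, 1.42-fold lower, adjusted p = 3.21e-06 from limma), on the arrays given above. This comparison and that of RSL within the inducible cells share the inducible DMSO arrays. With RSL the Sesn1 difference was -0.14 and did not pass (adjusted p = 0.0629). The next were Gadd45a at 0.39 (standard error 0.09) and Sesn3 at 0.38 (standard error 0.05), both higher in every inducible array than in every parental array under DMSO. For Sesn3 the difference under RSL was 0.44 and for Gadd45a 0.38, both called.

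Ak1 was lower in the inducible line, at 9.68, 9.68 and 9.64 with DMSO against 10.06, 10.00 and 9.98 in parental cells, and at 9.78, 9.77 and 9.78 against 10.04, 10.02 and 10.03 with RSL. Atm, the kinase that starts the response to double-strand breaks, was also lower, at 7.88, 7.86 and 7.80 against 8.14, 8.18 and 8.20 with DMSO and at 7.97, 7.92 and 7.83 against 8.04, 8.17 and 8.13 with RSL. Chek2, which ATM activates, was lower as well (difference -0.16, standard error 0.04). The damage kinases thus lay on the low side in the inducible line, with Chek1 at -0.03 and not called.

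The caspase machinery split. Apaf1 read 7.63, 7.67 and 7.64 in inducible and 7.95, 7.94 and 7.97 in parental cells with DMSO, and 7.60, 7.63 and 7.64 against 7.89, 7.92 and 7.85 with RSL. Casp8 read 8.94, 8.83 and 8.93 against 9.17, 9.26 and 9.18 with DMSO, and 8.89, 8.90 and 8.82 against 9.05, 9.09 and 9.06 with RSL. Both were lower without overlap under either treatment (differences -0.31 and -0.30 under DMSO). Bid went the other way, at 7.94, 7.99 and 8.02 against 7.67, 7.69 and 7.69 with DMSO and 8.08, 8.09 and 8.09 against 7.73, 7.68 and 7.67 with RSL. Shisa5 was higher as well, at 10.37, 10.44 and 10.47 against 10.15, 10.16 and 10.11 with DMSO and 10.35, 10.33 and 10.36 against 10.14, 10.11 and 10.11 with RSL. All 4 were called in both comparisons.

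Rchy1 was higher in every inducible array, at 10.05, 10.08 and 10.08 against 9.74, 9.84 and 9.77 with DMSO and 10.07, 10.05 and 10.04 against 9.86, 9.81 and 9.82 with RSL. Dcxr was higher too, at 8.68, 8.68 and 8.63 against 8.35, 8.34 and 8.38 with DMSO and 8.64, 8.53 and 8.67 against 8.31, 8.25 and 8.22 with RSL. Plk3, whose arrays are given above, was higher under DMSO by 0.28 (standard error 0.04, adjusted p = 2.64e-05 from limma) and by 0.09 under RSL, where it did not pass (adjusted p = 0.0944). Of the p53 inhibitors, Ppm1d was higher by 0.22 and 0.30 under DMSO and RSL, Mdm2 by 0.16 under DMSO, and Mdm4 did not differ beyond its spread (0.01, standard error 0.04).

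The other called differences under DMSO were smaller. Rrm2b, Btg2, Plk2, Sesn2, Xpc and Ephx1 were higher by 0.13 to 0.22, and Gadd45b, Zmat3, Polk, Steap3 and Ei24 were lower, between -0.21 and -0.09. Ei24, an apoptosis and autophagy gene with a difference of -0.09, lay just inside the threshold (adjusted p = 0.0479 in limma) and was not called in 8 of 12 fits without 1 array (up to 0.146). Ephx1 lost its DMSO call without inducible DMSO replicate 3 or parental DMSO replicate 3 (up to 0.0794), and Steap3 lost it in 1 such fit (0.0651). Under RSL, Trp53inp1, Ccng2, Casp9, Fas, Tnfrsf10b, Pidd1 and Cd82 were called higher and Siah1a lower without being called under DMSO, whereas Mdm2, Plk2, Plk3, Ei24 and Sesn1 were called under DMSO alone. Of these RSL calls, that of Cd82 (adjusted p = 0.0499) was lost in 10 of 12 fits without 1 array (up to 0.225), and those of Casp9 and Pidd1 in 4 each (up to 0.14 and 0.0942). Chek2 and Sesn2, called under both treatments, lost their RSL calls in 4 and 3 such fits (up to 0.121 and 0.0902). Being called under 1 treatment does not show that the treatments differ, and for these genes only Sesn1 passed the test of that difference. The 15 genes called in none of the 5 comparisons were Cdkn1a, Ccng1, Mdm4, Trp73, Chek1, Gadd45g, Gtse1, Bbc3, Pmaip1, Perp, Cycs, Aen, Ddb2, Phlda3 and Ddit4l.

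The DMSO and RSL comparisons of the lines use different arrays but the same clone and parental line, and share an estimate of the spread. They were also made under different treatments, so the RSL comparison is not an independent repeat of the DMSO comparison. Of the 49 p53 genes, 21 were called in both, 12 higher and 9 lower, each with the same sign under both treatments. Of all 16475 probe sets, 3876 were called in both, 3860 of them with the same sign. The 21 genes were 80.8% of those called under DMSO and 72.4% of those called under RSL, against 79.3% and 68.7% for all probe sets. Across the 49 genes the log2 differences correlated with a Pearson r of 0.856 and a Spearman rho of 0.876, against 0.896 and 0.771 over all probe sets, as a description across genes that are read on the same arrays and are not independent replicates. Ephx1, with 0.13 under DMSO and 0.40 under RSL, and Sesn1 lie farthest above the line of equality, the gap for each being its difference of RSL effects.

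**Figure D4:**
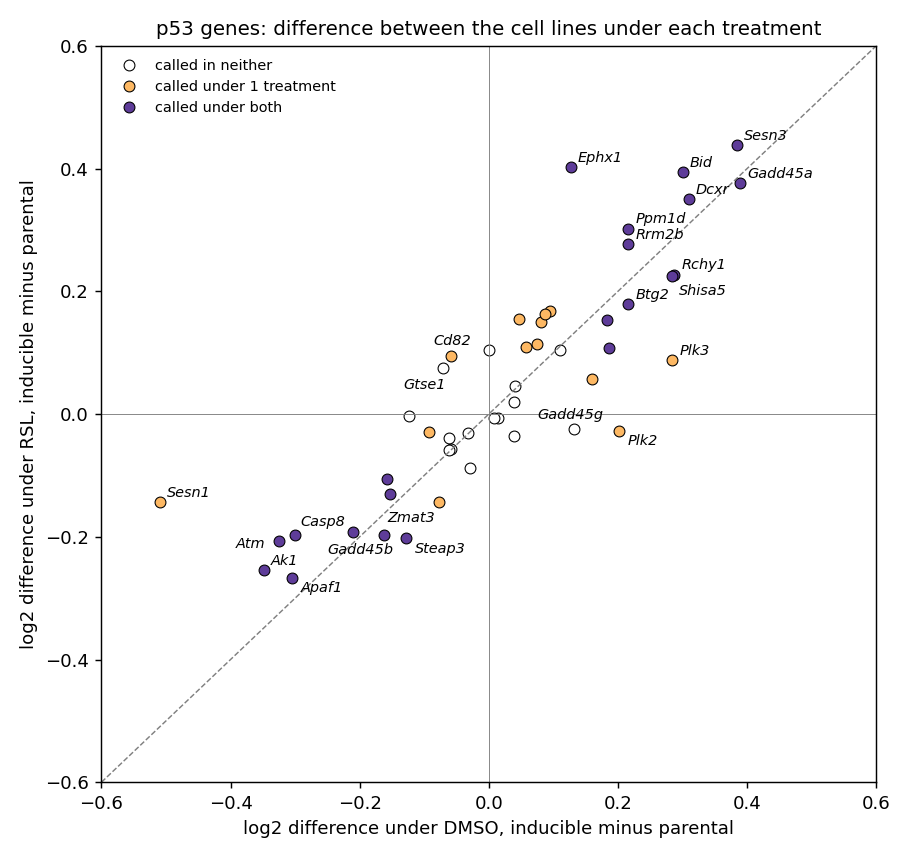
Log2 difference between inducible and parental cells for each of the 49 p53 genes under DMSO (horizontal axis) and under RSL (vertical axis), each from 3 arrays against 3. Filled purple points were called under both treatments, orange under 1, white under neither, and the dashed line marks equal differences. Of the genes, 42 have the same sign on both axes (against 12675 of all 16475 probe sets), and Ephx1 and Sesn1 lie far above the line.

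Other genes of p53 biology outside the list had 3 RSL calls in inducible cells, on lists of which 9.52%, 0% and 5.88% were called against 2.54% of all probe sets. Of 21 measured further members of the p53 signalling pathway, Ccne2, a cyclin of the step into S phase, rose by 0.29 in inducible cells with RSL (standard error 0.07, adjusted p = 0.0254 from limma) and Ccnb2, the mitotic cyclin B2 gene, fell (difference -0.13, standard error 0.03, adjusted p = 0.0454). None of 18 measured further direct targets was called, with 4 at an unadjusted p under 0.05 (22.2%, against 12.3% of all probe sets), and of 17 cofactors and modifiers Hexim1, an inhibitor of P-TEFb, rose by 0.19 (adjusted p = 0.00514). In parental cells none of the 3 lists had a call in limma. At an unadjusted p under 0.05 they held 2, 0 and 2 genes, or 9.52%, 0% and 11.8%, against 9.71% of all probe sets. Between the lines under DMSO 47.6%, 55.6% and 23.5% of the pathway, target and cofactor lists were called, against 29.7% of all probe sets. The pathway list had 5 genes higher and 5 lower, with Thbs1, the matrix protein thrombospondin 1, at 2.65, Cdk4 at -0.30, Ccne1 at 0.26 and Cdk1 at -0.22. The further targets had 6 higher and 4 lower, with Klf4 at 0.68, Zfp365 at -0.46, Psrc1 at -0.40 and Slc19a2 at 0.31, and the cofactors 4 higher and 0 lower in limma (2 lower at an unadjusted p under 0.05), with Trim24, a ligase for p53, at 0.83, Ppp1r13b, which encodes ASPP1, at 0.42, Crebbp at 0.28 and Hexim1 at 0.26. Of 11 measured proliferation markers 0 were called after RSL in inducible cells in limma. At an unadjusted p under 0.05 there were 2, both lower (18.2%, against 12.3% of all probe sets). Under DMSO 3 were called, all lower in the inducible line (Mcm3, Mcm5 and Bub1), or 27.3% against 29.7% of all probe sets. The part of the proliferation markers in the differences of the p53 genes was not tested. Among markers of other cells under DMSO, 2 of 7 macrophage genes were called in the inducible line, Cd68 at 0.40 and Csf1r at -0.20. So were 1 of 6 epithelial genes, Cdh1 at 0.17, and 1 of 5 endothelial genes, Tie1 at 0.73. These shares, 28.6%, 16.7% and 20%, lie below the 29.7% of all probe sets. Of the 10 fibroblast markers, 8 (80%) were called under DMSO, 5 higher and 3 lower in the inducible line. Their differences ran from -0.67 to 0.73. Ptprc, Pecam1 and Epcam did not pass, and the part of these markers was not tested either.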

How the data were processed

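The log2 values used here are those the authors deposited, in a single table of 12 arrays. Per the methods, probes were regrouped by Entrez gene (Custom CDF, version 10), corrected for background by RMA and quantile normalized. That the scale is log2 was read from the values. For the summary over probes a method was not given in the sources used. No column belonged to other samples (0 columns). Among 16539 probe sets, 64 hybridization controls were left out, and 15780 of the other 16475 had 1 gene symbol in the annotation given for them. A probe set for Trp53 was not analysed here.

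In limma 3.58.1 (R 4.3.3), the 16475 probe sets were fitted on the 12 arrays with a mean per group and no block or filter, which gave 5 comparisons. Benjamini-Hochberg adjustment ran over all probe sets, calls were made below 0.05, and the text's adjusted p-values are limma's. With 3 arrays against 3, an exact permutation test of a single gene could not go below 0.1. The methods' one-way analysis was run as an alternative, beside a replicate block, a filter that drops the lowest 40% of means, a variance trend, array weights, other scalings, the arrays compared alone and leaving out each array. Tested on simulated data for the RSL effect in inducible cells with 16475 probe sets, the procedure recovered 70% of changes of 0.2 log2 units, 96% of 0.3 and 100% of 0.5 and 1. Of its 192 calls, 9 were false. The 200 changes were planted on randomly drawn probe sets, with noise independent between probe sets. These rates are therefore not rates for the p53 genes. Arrays give no count of molecules, and their number limits the precision. The genes given on every array were those called after RSL or in the difference of the effects, Cdkn1a, Mdm2, Ccng1, the sestrin and Gadd45 genes, and the 12 largest called differences between the lines under DMSO. Of further lists, up to 4 called genes with the smallest p were named. The genes and lists were chosen with earlier results of these data known.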

Additional observations from a re-analysis of the deposited data

Results flagged for a closer look

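For 2 of the p53 genes, and for Ier2, the RSL effect differed between the lines in limma's test of that difference. For Sesn1 the effect was 0.24 in inducible and -0.13 in parental cells, a difference of 0.37 log2 units (adjusted p = 0.04997). For Ephx1 the effects were 0.18 and -0.10 and the difference was 0.28 (adjusted p = 0.0169). For Ier2, whose probe set is the check of the construct, they were -0.47 and 0.17 and the difference was -0.64 (adjusted p = 0.000262), a direction against the labels. The differences of Sesn1 and Ephx1 rest on the same labels of the inducible arrays.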

How the results depend on the processing

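For RSL in inducible cells, 3 p53 genes were called as reported (against 2.54% of all probe sets) and 5 with array weights (against 4.47%). The one-way analysis called 0 after adjustment (against 0.00607%) and 12 at its nominal p (against 11.6%). Without 1 array 0 to 3 were called, against 1.24% to 2.77% of all probe sets. In parental cells 0 were called (against 0.0303% of all probe sets), and 6 at the one-way nominal p (against 7.44%). For the difference of the effects, 2 were called as reported (against 0.662% of all probe sets) and 1 with each array's median subtracted (against 0.595%). The unmoderated fit called 0 after adjustment (against 0.188%) and 9 at its nominal p (against 8.94%). Without 1 array 0 to 3 were called, against 0.34% to 0.874% of all probe sets. A fit on the arrays compared alone does not apply to that difference. Between the lines under RSL the one-way analysis after adjustment called 19 in place of 29, and 21.1% of all probe sets. The other counts of the line differences ran from 22 to 30 under DMSO and 27 to 31 under RSL. The shares of all probe sets there were 20.7% to 48.8% and 32.3% to 52.9%. Without 1 array the counts were 24 to 27 and 24 to 30, against 25.1% to 30.2% and 28.6% to 36% of all probe sets. The only sign that turned was that of Cdkn1a after RSL in inducible cells, which was not called: it ranged from -0.0034, without inducible RSL replicate 3, to 0.027. Of the called single-gene values, those for DMSO between the lines stayed past the threshold in 528 of 546 refits and those for RSL in 562 of 608. These refits include ones without an array of the other treatment, where the difference cannot change and only the shared spread moves. They also include the nominal one-way p, which is not adjusted, so the counts overstate how stable the calls are.

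The groups share only replicate numbers. Arrays with the same number had deviations correlating between -0.296 and 0.219 over 18 pairs, and in 5 of the 18 the array of the same number correlated best. With the replicate block, 2 p53 genes were called after RSL in inducible cells, 0 in parental cells and 1 for the difference of the effects. Between the lines 25 and 27 were called under DMSO and RSL. Of all probe sets 2%, 0.0243%, 0.461%, 27.9% and 32.3% were called in the same order. The call lost after RSL in inducible cells and in the difference of the effects was that of Sesn1 (adjusted p = 0.0518 and 0.0838). The values are array signals, so genes near the first quartile (Pmaip1, Ddit4l, Perp) carry little information.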
